A study of Homo sapiens with 12 samples.

Results

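The genes described here are 35 cyclins, cyclin-dependent kinases, kinase inhibitors and mitotic genes, taken by name from a table of 58219 genes. All 35 were found and tested in every comparison, CDKN2C only because of its day 8 libraries. They comprise 5 D cyclins and their partner kinases, 3 inhibitors, 4 genes of the entry into DNA replication, 8 of mitotic entry, 5 of the spindle checkpoint and mitotic exit, and 10 of chromosomes, kinetochores and the spindle. The RNA came from H9, a widely used line of human embryonic stem cells, during neural differentiation, and was selected for poly(A) tails. The groups were SOX21-/- cells (libraries S13 and S23) and wild-type cells (WT1 and WT2), each at days 0, 4 and 8, which gives 12 libraries in 6 groups of 2. The question in the study's design is what SOX21, a transcription factor of neural progenitors, does in early neural differentiation. The labels do not explain what S13 and S23 are, nor whether S13 at 2 days is 1 culture; p-values therefore cover the spread between these libraries alone, which may be technical.

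Cyclins switch on cyclin-dependent kinases, and each cyclin acts at its own point of the cell cycle. D cyclins with CDK4 or CDK6, then E cyclins with CDK2, carry a cell out of G1 by relieving the block that RB proteins place on E2F factors, while inhibitors such as p21 and p27 hold these kinases back. Cyclins A and B with CDK1 drive mitosis, in which the spindle checkpoint delays the separation of chromosomes until all are attached. Embryonic stem cells are known for a short G1 phase, which lengthens as neural progenitors form and differentiate.

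Values are TPM, a measure of abundance that is corrected for transcript length and sums to a fixed total, so the depth behind them is unknown and levels can be compared between genes. In bulk RNA, fewer cells in cycle and less RNA per cell cannot be told apart. The libraries carried the marks of their labelled stages: POU5F1, a pluripotency factor, stood at 1507 to 1744 TPM at day 0 and at 0.283 to 1.41 TPM at day 8, and PAX6, a neural progenitor factor, at 95.1 to 204 TPM at day 8. Of the same pluripotency list, LIN28A went the other way, at 148 to 176 TPM at day 0 and 608 to 952 TPM later, and DNMT3B stood at 90.4 to 115 TPM at day 0 and 108 to 171 TPM at day 4. The summed level of 8 mesoderm and endoderm markers was at most 1.38 TPM in any library, and SOX17 among them was listed at 0 throughout. SOX21 mRNA was present in the libraries labelled SOX21-/-, at 162 (S13) and 143 TPM (S23) at day 4, against 156 and 166 TPM in wild type. At day 8 these libraries split, with 253 TPM in S13, above both wild-type libraries, and 69.9 TPM in S23, below both, against 129 and 100 TPM in wild type. The mRNA level does not show whether the protein is lost, so the genotype rests on the labels. The day 0 libraries stood apart: nuclear protein-coding genes made up 55.9 to 56.4% of their TPM, against 83.5 to 87.1% at days 4 and 8. Changes between days were therefore measured after rescaling the nuclear protein-coding genes of each library to the total of a TPM library ("rescaled TPM" below), while genotypes were compared at the same day on TPM as deposited. Each test was a limma contrast on log2(value + 1), which understates the change of low genes. Folds, and levels given as a part of another level, come from these contrasts. They are thus ratios of value + 1, smaller than the ratios of the printed values for low genes. A gene was called at a Benjamini-Hochberg adjusted p under 0.05 over all genes tested.

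Many mitotic genes share a promoter layout, a CHR element (cell cycle genes homology region, TTTGAA) with CCAAT boxes, read by the DREAM and MMB complexes, whereas G1/S genes carry E2F sites. RefSeq promoter windows on GRCh38.p14, reaching 250 bases before and 50 after a transcription start, were matched by symbol for 27 of the 35 genes, in 40 windows. CCND1, CCND2, CCNE2, CDK2, AURKA, TTK, BIRC5 and TPX2 had no entry. Of the genes with an entry, the 5 windows below belong to those with the largest called change, over any genotype comparison or day step, among the D cyclins and their kinases (CDK4), the inhibitors (CDKN1A) and the genes of replication entry (CDC25A), and to the first 2 among the 23 mitotic genes taken as 1 group (KIF11 and CENPE). Each is printed in the direction of its gene, with capitals at every match, on either strand, to the CHR element TTTGAA, its variant form TTCGAA, the box CCAAT, or an E2F motif in the form TTCCCGC, in the form TTCGCGC, in the form TTGCCGC or in the form TTGGCGC.
KIF11 (chr10:92592880-92593179, plus strand): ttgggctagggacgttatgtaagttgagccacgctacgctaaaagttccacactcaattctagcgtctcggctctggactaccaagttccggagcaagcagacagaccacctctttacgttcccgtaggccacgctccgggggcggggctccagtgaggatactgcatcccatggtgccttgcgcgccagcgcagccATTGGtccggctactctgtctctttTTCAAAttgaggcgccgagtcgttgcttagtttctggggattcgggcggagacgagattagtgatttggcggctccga
CENPE (chr4:103198294-103198593, minus strand): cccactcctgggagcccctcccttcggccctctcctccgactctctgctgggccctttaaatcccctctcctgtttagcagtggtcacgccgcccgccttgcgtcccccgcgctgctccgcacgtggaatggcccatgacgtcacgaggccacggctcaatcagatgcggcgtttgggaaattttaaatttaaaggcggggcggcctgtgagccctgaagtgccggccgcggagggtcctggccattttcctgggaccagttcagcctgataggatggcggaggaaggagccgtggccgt
CDC25A (chr3:48188368-48188667, minus strand): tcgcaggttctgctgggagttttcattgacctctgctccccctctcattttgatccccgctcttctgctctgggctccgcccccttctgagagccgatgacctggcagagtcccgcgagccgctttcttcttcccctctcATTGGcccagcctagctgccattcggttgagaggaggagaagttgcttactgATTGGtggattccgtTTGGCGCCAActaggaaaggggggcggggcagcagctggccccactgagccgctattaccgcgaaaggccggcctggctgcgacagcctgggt
CDKN1A (chr6:36678464-36678763, plus strand): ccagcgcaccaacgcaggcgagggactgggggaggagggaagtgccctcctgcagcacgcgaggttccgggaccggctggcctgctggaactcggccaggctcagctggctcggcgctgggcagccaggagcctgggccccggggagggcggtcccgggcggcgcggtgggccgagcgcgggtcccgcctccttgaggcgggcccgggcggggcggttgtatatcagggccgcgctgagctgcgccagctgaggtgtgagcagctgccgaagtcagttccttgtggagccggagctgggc
CDK4 (chr12:57752261-57752560, minus strand): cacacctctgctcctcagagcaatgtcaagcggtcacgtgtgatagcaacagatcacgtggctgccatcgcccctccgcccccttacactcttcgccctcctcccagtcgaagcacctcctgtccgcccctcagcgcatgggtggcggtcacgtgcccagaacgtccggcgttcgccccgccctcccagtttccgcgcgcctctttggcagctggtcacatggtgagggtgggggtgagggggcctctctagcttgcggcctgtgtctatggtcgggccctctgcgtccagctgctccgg
In KIF11, a CCAAT box on the other strand began at base -53 from the start and a CHR element on the other strand at base -28. CDC25A held CCAAT boxes on the other strand at bases -110 and -58, and E2F motifs at -43 and -40 that overlap one another on opposite strands. The windows of CENPE, CDKN1A and CDK4 held no match to these letters.

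TTTGAA occurred in at least 1 window of 12 of the 19 mitotic genes with an entry and in 0 of the 8 other genes of the set. Counted by window, it was in 51.9% of the 27 mitotic windows, against 15.2% of all 35116 windows in the table. The CCAAT box was in 77.8% of the mitotic windows, against 34.6% of all, both motifs together in 48.1%, against 5.9%, and an E2F motif in 29.6%, against 13%. TTCGAA was in 7.41% of the mitotic windows, against 1.45% of all windows. Several genes have more than 1 window, and such matches are letters in a window, not shown to be bound. The genes with TTTGAA spanned nearly the whole range of change: from day 0 to day 4 their log2 changes ran from -1.14 to 1.48 in SOX21-/- and from -0.998 to 1.73 in wild type.

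Between the genotypes, CCND2 was called lower in SOX21-/- at day 4 and CCND1 higher at day 8; neither was called at any other day, and CCND3 was called at no day. CCND1 (cyclin D1, ENSG00000110092.3, chr11:69641087-69654474 on GRCh38) had 166 and 129 TPM in SOX21-/- at day 8, against 87.9 and 82.9 TPM in wild type. Both SOX21-/- libraries lay above both wild-type libraries, and CCND1 was called higher, 1.71-fold (95% interval 1.38 to 2.12; log2 0.77, SE 0.14, limma adjusted p = 0.0246). It was the only one of the 35 called at day 8, where 1.47% of the 24248 genes tested were called higher. CCND1 already stood above wild type at day 4, at 55.4 and 48.7 TPM in SOX21-/- against 36.1 and 43.0 TPM in wild type, a difference that was not called (log2 0.39, limma adjusted p = 0.203). At day 0 the genotypes overlapped, with 42.5 and 39.5 TPM in SOX21-/- and 42.1 and 40.8 TPM in wild type.

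CCND2 (cyclin D2, ENSG00000118971.7, chr12:4273772-4305350) differed at day 4. It had 19.4 and 20.2 TPM in SOX21-/-, against 30.2 and 35.2 TPM in wild type, so that the groups did not overlap. CCND2 was called lower in SOX21-/-, at 0.618 of the wild-type level (95% interval 0.514 to 0.742; log2 -0.69, SE 0.12, limma adjusted p = 0.0471), with 0.536% of all genes tested called lower. The median of all genes tested was itself -0.12 at day 4, and CCND2 lay 0.57 below that median on the log2 scale. At day 8 the difference was gone from the values: 53.2 and 55.9 TPM in SOX21-/-, 54.8 and 52.2 TPM in wild type. CCND3 (cyclin D3) stood between 12.01 and 20.8 TPM in all 12 libraries and overlapped between genotypes at days 0 and 8.

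Neither call held under every alternative. The CCND2 call at day 4 was lost whichever of the 12 libraries was left out (limma adjusted p 0.0573 to 0.237), without the day 0 libraries (0.0801) and with the day 4 libraries alone (0.185), though its log2 difference stayed between -0.80 and -0.51 over all 21 alternatives. The CCND1 call at day 8 was lost without S13, WT1 or WT2 of that day (limma adjusted p 0.0946, 0.0857 and 0.155), without the day 0 libraries (0.0702) and with the day 8 libraries alone (0.14), with a log2 difference of 0.59 to 0.95. The sum of 8 markers of young neurons also differed at these days: it was 142 and 161 TPM in SOX21-/- at day 4, against 255 and 279 TPM in wild type, and 285 and 202 TPM at day 8, against 372 and 364 TPM. The markers did not move as one at day 8: TUBB3, STMN2 and DCX were lower in both SOX21-/- libraries, while ELAVL3, ELAVL4, NEUROD1 and NEUROG2, at most 9.16 TPM, were higher in both. The sum of 8 neural progenitor markers was 1732 and 1799 TPM in SOX21-/- at day 8, against 1594 and 1496 TPM in wild type. This list split at day 8 too. PAX6, SOX1, NES, CDH2 and ZIC2 were higher in both SOX21-/- libraries, and SOX2 overlapped. HES5 (112 and 128 TPM, against 156 and 157 TPM) and LHX2 (59.4 and 43.5 TPM, against 85.7 and 87.2 TPM) were lower. At day 4 the sum was 1075 and 1393 TPM in SOX21-/-, against 1370 and 1420 TPM in wild type, with overlap. The part of either list in the cyclin values was not tested. Without strand information, reads from bases that CCND1 shares with its opposite-strand neighbour LTO1, or CCND2 with CCND2-AS1, cannot be told apart. CCND2 also overlaps AC008012.1, a protein-coding gene on the same strand, which strand information would not separate.

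**Figure D1:**
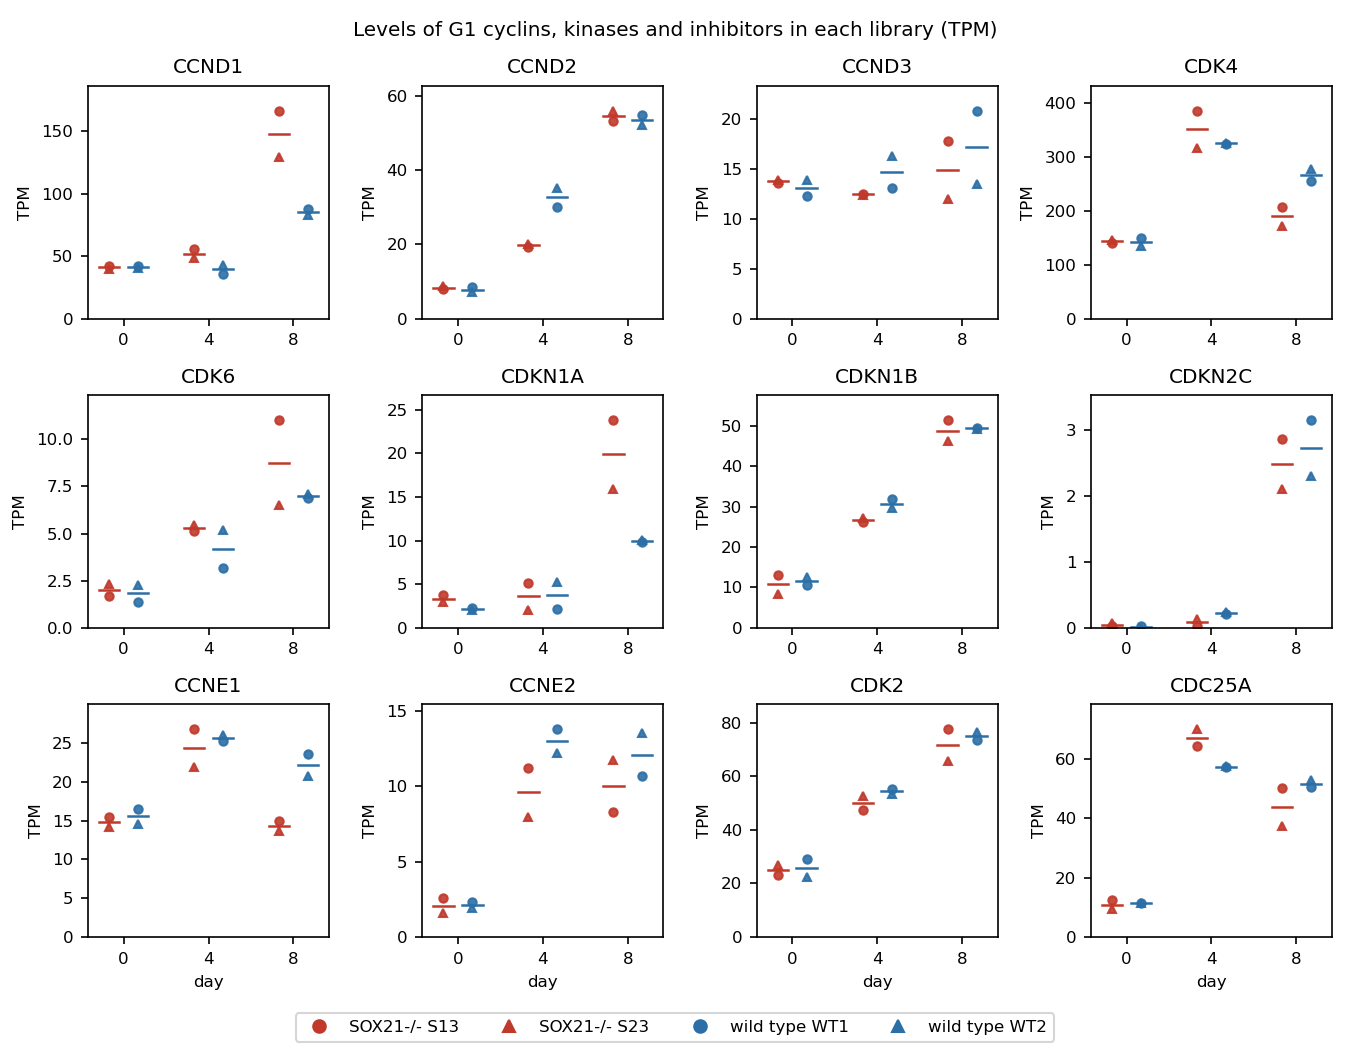
TPM of 12 G1 and G1/S genes in each library by day, with SOX21-/- in red to the left of wild type in blue; points are libraries, horizontal lines are the means of 2 libraries, and the vertical axes differ. At day 8, CCND1 and CDKN1A are higher and CCNE1 and CDK4 lower in both SOX21-/- libraries than in both wild-type libraries, of which only CCND1 was called.

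The balance among the D cyclins can be read within a library, where no scaling between libraries enters. CCND1 made up 63.5 and 59.9% of D cyclin TPM in SOX21-/- at day 4, against 45.5 and 45.5% in wild type. At day 8 its share was 70.1 and 65.6% in SOX21-/- and 53.8 and 55.8% in wild type. The share of CCND2 was 22.2 and 24.8% in SOX21-/- at day 4, against 38.0 and 37.2% in wild type. At day 8 it was 22.4 and 28.3%, against 33.5 and 35.1%. The D cyclin shares make up a whole, so a change in any share moves the others. The CCND2 share is therefore not a second observation. CCND2 TPM itself was lower in both SOX21-/- libraries at day 4, the call described above, and overlapped between the genotypes at day 8. At day 0 both genotypes had the same make-up, with CCND1 at 63.7 to 67.0% and CCND2 at 11.5 to 14.0% over the 4 libraries. These shares were not tested.

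**Figure D2:**
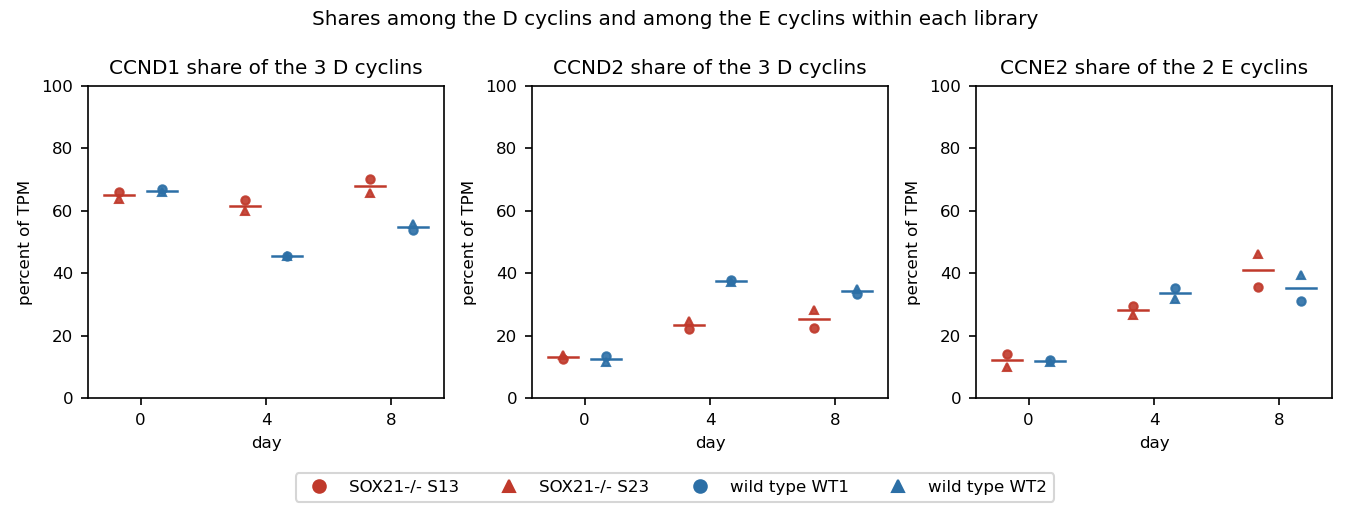
Percent of the summed TPM of the 3 D cyclins held by CCND1 and by CCND2, and of the 2 E cyclins held by CCNE2, in each library by day; SOX21-/- libraries are red and left, wild type blue and right, and lines are means of 2. The genotypes separate in both D cyclin shares at days 4 and 8. The D cyclin shares make up a whole, so a change in either moves the other. The CCNE2 share climbs after day 0 in both genotypes.

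CDK4, the main D cyclin kinase here, had 207 and 172 TPM in SOX21-/- at day 8, against 255 and 278 TPM in wild type. The groups did not overlap, and the difference missed the threshold (log2 -0.49, SE 0.12, limma adjusted p = 0.0691). CDK6, its close relative, stayed low, between 1.39 and 11.0 TPM over the 12 libraries. It made up 5.05 and 3.63% of CDK4 and CDK6 TPM in SOX21-/- at day 8, against 2.62 and 2.49% in wild type. CDK4 lies across TSPAN31 on the opposite strand, so its reads carry that uncertainty.

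Of the inhibitors, CDKN1A (p21, a target of p53) had 23.8 and 15.9 TPM in SOX21-/- at day 8, against 9.82 and 10.1 TPM in wild type. This 1.87-fold difference had a wide interval and was not called (95% interval 1.0 to 3.49, limma adjusted p = 0.304). CDKN1B (p27) had 51.5 and 46.3 TPM in SOX21-/- and 49.6 and 49.3 TPM in wild type at that day, so the groups overlapped. CDKN2C (p18, an inhibitor of CDK4 and CDK6) also overlapped, at 2.87 and 2.11 TPM in SOX21-/- and 3.16 and 2.31 TPM in wild type.

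Among the genes of the entry into DNA replication, CCNE1 (cyclin E1) came closest to a call. It had 14.9 and 13.7 TPM in SOX21-/- at day 8, against 23.5 and 20.8 TPM in wild type (log2 -0.60, SE 0.13, limma adjusted p = 0.0527). CCNE1 was called when genes had to reach 5 TPM (adjusted p = 0.0487), and both CCNE1 and CDK4 were called on the nuclear protein-coding scale (0.0335 and 0.0334). CCNE2 (cyclin E2) had 8.29 and 11.8 TPM in SOX21-/- and 10.7 and 13.5 TPM in wild type at day 8, with overlap. CDK2, the kinase of both E cyclins, and CDC25A, the phosphatase that activates it, were not called at any day between the genotypes.

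Of the 23 mitotic genes, 0 was called between the genotypes at any of the 3 days. The shares of all genes tested that were called were small too, at 0.384, 0.775 and 2.79%. The median log2 difference of the mitotic genes was -0.02 at day 0, -0.03 at day 4 and -0.03 at day 8, beside medians of 0, -0.12 and 0 for all genes tested. Their summed level was 2598 and 2241 TPM in SOX21-/- at day 8 and 2465 and 2399 TPM in wild type, with the wild-type libraries between the 2 SOX21-/- libraries. At day 4 the sums were 1974 and 1917 TPM in SOX21-/- and 2028 and 2003 TPM in wild type. At an unadjusted p under 0.05, limma gave 0 of the 23 at day 0 (5.88% of all genes tested), 7 at day 4 (30.4%, beside 16.9% of all) and 4 at day 8 (17.4%, beside 16.3% of all). At day 4 the genotypes did not overlap for 14 of the 23 (60.9%), beside 44.9% of all genes tested.

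The mitotic genes with the largest uncalled differences at day 4 were CDC25B and CENPE. CDC25B, a phosphatase that activates CDK1, had 5.69 and 7.60 TPM in SOX21-/-, against 11.96 and 11.5 TPM in wild type (log2 -0.75, limma adjusted p = 0.105). CENPE, the kinetochore motor that gathers chromosomes at the spindle equator, had 9.87 and 8.75 TPM in SOX21-/-, against 12.96 and 16.2 TPM in wild type (log2 -0.59, limma adjusted p = 0.122). Neither pair overlapped at day 4. AURKB, the kinase of the chromosomal passenger complex, also did not overlap, with 108 and 104 TPM in SOX21-/- against 134 and 141 TPM in wild type (limma adjusted p = 0.121). Of the 8 genes of mitotic entry, 4 did not overlap at day 4 (50%), near the 44.9% of all genes tested. CCNB1 (cyclin B1) overlapped, with 238 and 219 TPM in SOX21-/- and 221 and 203 TPM in wild type. At day 8 the mitotic gene with the largest difference was TTK, a spindle checkpoint kinase, at 60.9 and 64.4 TPM in SOX21-/-, against 51.2 and 45.4 TPM in wild type, without overlap and not called (log2 0.37, limma adjusted p = 0.072). MKI67, the Ki-67 proliferation marker, had 56.9 and 51.0 TPM in SOX21-/- at day 8, against 67.8 and 65.7 TPM in wild type (log2 -0.30, limma adjusted p = 0.117).

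Over all 35 genes, 0 was called at day 0, where 0.384% of the genes tested were called, and 0 reached an unadjusted p under 0.05. At days 4 and 8 the count was 1 of 35 each, the 2 D cyclins above, beside 0.775 and 2.79% of all genes tested. At an unadjusted p under 0.05, limma gave 9 of 35 at day 4 and 8 of 35 at day 8, beside 16.9 and 16.3% of the 24248 genes tested. A difference short of the threshold does not show equal levels. CDK4 was not called at day 8, yet its 95% interval ran from 0.59 to 0.855 of its wild-type level. That interval is not adjusted for the number of genes tested, whereas the call is.

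**Figure D3:**
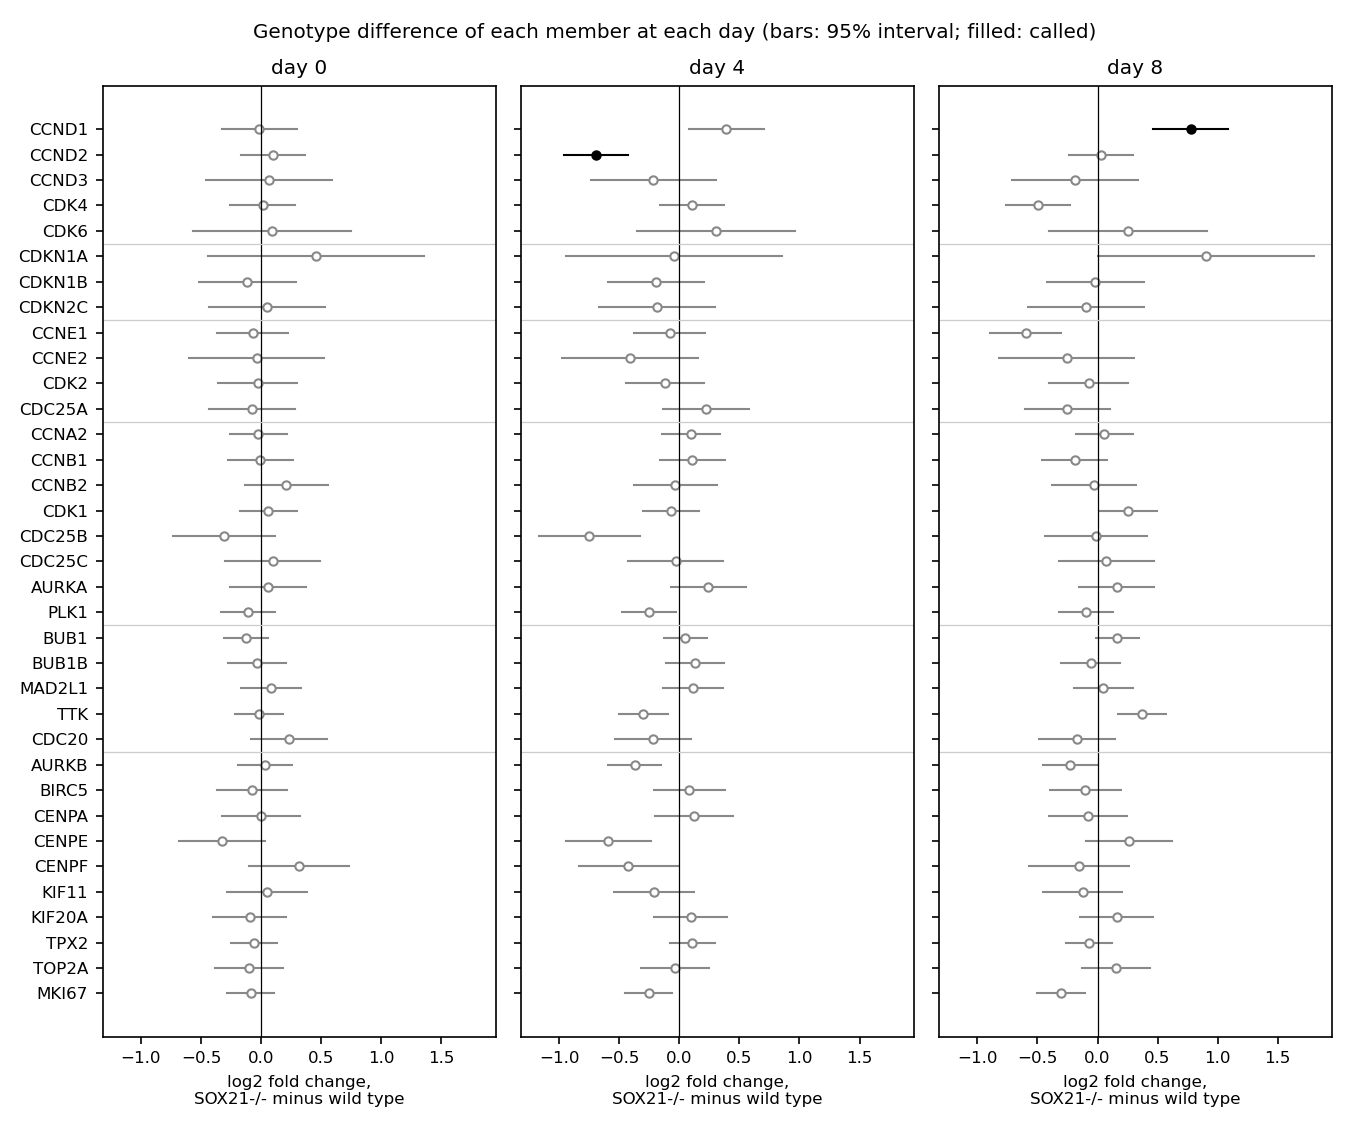
Log2 fold change of SOX21-/- over wild type for each of the 35 genes at days 0, 4 and 8, on log2(TPM + 1); points are limma estimates, bars their 95% intervals, filled points called genes, and grey lines separate the roles. CCND2 at day 4 and CCND1 at day 8 are the filled points.

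The day 0 to day 4 step, the entry into the neural lineage, raised some genes of the set and lowered others. In SOX21-/-, 17 of the 35 were called higher and 7 lower, where 46.1% of the 14809 genes tested were called higher and 21.6% lower. In wild type, 18 were called higher and 5 lower, where 51.7% were called higher and 19.2% lower. The set's median log2 change was 0.36 in SOX21-/- and 0.45 in wild type, beside 0.42 and 0.55 for all genes tested. The balance turned with the scaling: median-of-ratios scaling, which moved the median of all genes to 0.001 and -0.008, gave 8 higher and 15 lower in SOX21-/- and 7 higher and 14 lower in wild type. TPM as deposited, with medians of 0.72 and 0.91, gave 25 higher and 3 lower in SOX21-/- and 27 higher and 2 lower in wild type. Directions over this step are therefore relative to the rescaled total. All 17 genes called higher in SOX21-/- were also called higher in wild type, and CDC25B, PLK1 and CENPE were the 3 called lower in both. The shares of the set called were near those of the background, and a log2 rise below the median of all genes tested is smaller than that of the typical gene.

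CDC25A (ENSG00000164045.11, chr3:48157146-48188402) had the largest rise of the set in SOX21-/-. It had 21.9 and 16.8 rescaled TPM at day 0, 74.0 and 80.3 at day 4, then 57.8 and 43.9 at day 8 in S13 and S23. In WT1 and WT2 it had 20.2 and 20.7, then 65.6 and 66.3, then 58.7 and 63.1. All day 4 libraries lay above all day 0 libraries, and CDC25A rose 3.87-fold in SOX21-/- and 3.12-fold in wild type to day 4 (limma adjusted p = 2.06e-06 and 5.96e-06). CCNE2 rose 2.59-fold and 3.33-fold (limma adjusted p = 0.000782 and 0.000149), while CCNE1 was not called in either genotype. Within the E cyclins, the share of CCNE2 went up after day 0 in each library series: it was 14.3 and 10.0% at day 0, 29.6 and 26.8% at day 4, then 35.8 and 46.3% at day 8 in SOX21-/-, and 12.3 and 11.6%, 35.3 and 31.9%, and 31.2 and 39.4% in wild type.

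KIF11, the motor that pushes spindle poles apart, had the largest rise among mitotic genes, with 18.1 and 15.6 rescaled TPM at day 0, then 52.9 and 44.5 at day 4 in SOX21-/-. In wild type it had 14.8 and 17.9 at day 0, then 56.3 and 56.2 at day 4. KIF11 rose 2.78-fold in SOX21-/- and 3.31-fold in wild type (limma adjusted p = 1.1e-05 and 3.36e-06). CCNA2 (cyclin A2) rose 2.63-fold and 2.4-fold, TPX2, which targets the Aurora A kinase to the spindle, 2.46-fold and 2.18-fold, and CCNB2 (cyclin B2) 2.02-fold and 2.37-fold. These 4 genes, CCNE2 and CDC25A kept their call in both genotypes under all 20 alternatives.

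Other mitotic genes fell over the same step. PLK1 (ENSG00000166851.14, chr16:23677656-23690367), the Polo kinase of mitotic entry, had 199 and 207 rescaled TPM at day 0, 93.1 and 90.4 at day 4, then 133 and 113 at day 8 in SOX21-/-. In wild type it had 209 and 232, then 109 and 111, then 137 and 129. PLK1 fell to 0.454 of the day 0 level in SOX21-/- and to 0.501 in wild type (limma adjusted p = 3.81e-06 and 8.46e-06). CDC25B fell to 0.342 and 0.461 of its day 0 level (limma adjusted p = 3.49e-05 and 0.000319), and CENPE to 0.434 and 0.518 (6.98e-05 and 0.000341). PLK1 and CDC25B were called lower in both genotypes under all 20 alternatives, as was CENPE in SOX21-/-, while the CENPE call in wild type was lost on TPM as deposited.

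Calls in 1 genotype alone were made for AURKB, CDK1, CDC20 and CCND3 (lower in SOX21-/-), and for BUB1B and CCND1 (lower) and CENPF (higher) in wild type; the difference of steps was called for none of them. Several of these depend on the scale, since day 0 differs in composition: on TPM as deposited the sign turned for CDK1 (0.27), CDC20 (0.26) and AURKB (0.022) in SOX21-/- and for BUB1B (0.19) in wild type. CDC20, CDK1 and CDK2 in SOX21-/- and CDK2 in wild type also lost their calls with 1 library left out (limma adjusted p up to 0.221, 0.101, 0.211 and 0.157). Several genes of the set overlap others, among them CDK2 with PMEL, CCNA2 with EXOSC9, KIF20A with CDC23 and BUB1B with BUB1B-PAK6, and the share of reads each took is unknown. The CDC20 copy CDC20P1, a processed pseudogene, was listed at 3.08 to 3.68 TPM at day 0 and at 0.213 to 1.38 TPM later.

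**Figure D4:**
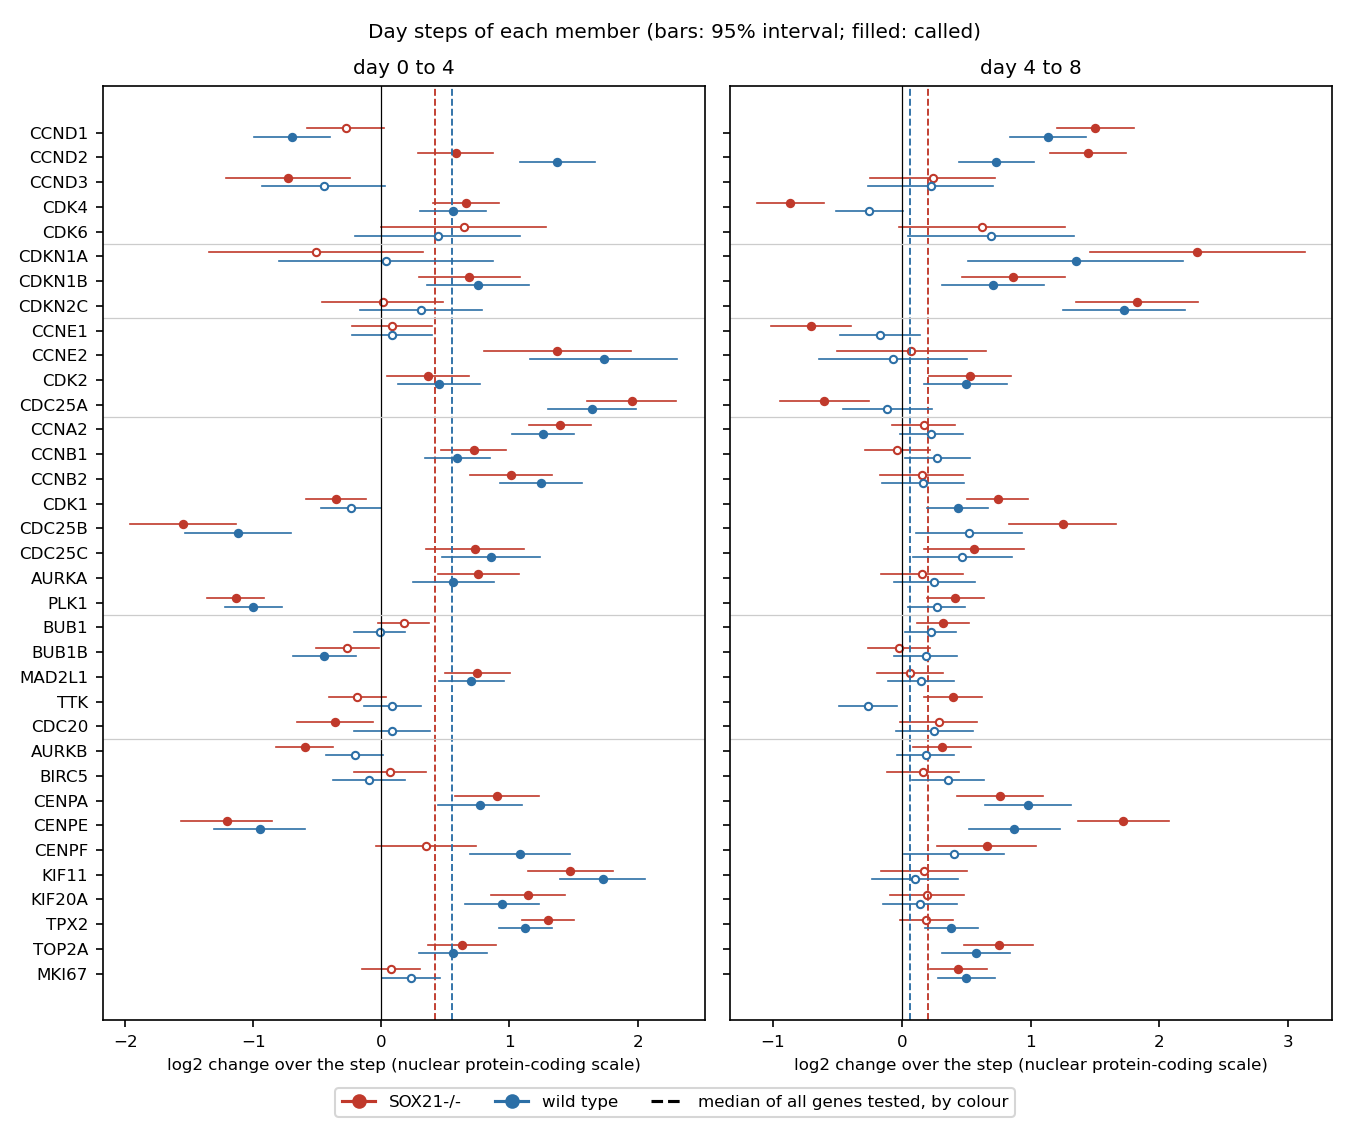
Log2 change of each of the 35 genes from day 0 to day 4 (left) and from day 4 to day 8 (right), on the nuclear protein-coding scale, with SOX21-/- in red above wild type in blue; bars are 95% intervals, filled points called genes, dashed lines the medians of all genes tested. CDC25A, KIF11 and CCNA2 lie far right of the dashed lines in the first step and CDC25B, PLK1 and CENPE far left. The 3 inhibitors lie to the right in the second, where CDKN2C was tested only because of its day 8 libraries.

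From day 4 to day 8, CCND1, CCND2, CDKN1A and CDKN1B were called higher in both genotypes. The counts of the set below also include CDKN2C, which was tested only because of its day 8 libraries. In SOX21-/-, 18 of the 35 were called higher and 3 lower, where 26.3% of the genes tested were called higher and 11% lower. In wild type, 12 were called higher and 0 lower, where 12% were called higher and 7.15% lower; at an unadjusted p under 0.05, limma gave 21 of the 35 in each genotype, beside 47.1% of all genes tested in SOX21-/- and 33.5% in wild type. The set's median log2 change was 0.32 in SOX21-/- and 0.28 in wild type, beside 0.20 and 0.06 for all genes tested. The step shares its day 4 libraries with the step before, so a gene that is low at day 4 enters both.

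All 3 inhibitors were called higher in both genotypes. CDKN1A had 6.66 and 5.23 rescaled TPM at day 0, 5.93 and 2.39 at day 4, then 27.5 and 18.8 at day 8 in SOX21-/-. In wild type it had 4.16 and 3.57, then 2.54 and 6.04, then 11.4 and 12.1. Its day 8 libraries were above all earlier ones, and CDKN1A rose 4.9-fold in SOX21-/- and 2.55-fold in wild type (limma adjusted p = 0.00125 and 0.031). CDKN2C was at most 0.286 rescaled TPM in all day 0 and day 4 libraries and at 3.32 and 2.49 at day 8 in SOX21-/- and 3.68 and 2.76 in wild type. Its log2 changes were 1.83 and 1.73 on the log2(value + 1) scale (limma adjusted p = 0.000197 and 0.00061). CDKN2C passed the filter of 1 in 2 libraries only through day 8, so a rise to day 8 was built into its being tested. CDKN1B rose 1.82-fold and 1.63-fold (limma adjusted p = 0.00412 and 0.0209).

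CCND1 rose 2.84-fold in SOX21-/- and 2.2-fold in wild type over this step, and CCND2 2.73-fold and 1.67-fold (limma adjusted p = 4.64e-05, 0.000458, 5.23e-05 and 0.00427). The only called decreases were in SOX21-/-. CDK4 had 250 and 259 rescaled TPM at day 0, 444 and 364 at day 4, then 240 and 203 at day 8 there, and 267 and 242, 373 and 376, and 298 and 332 in wild type. CDK4 fell to 0.549 of its day 4 level in SOX21-/- (limma adjusted p = 0.000416), CCNE1 to 0.613 (0.00346) and CDC25A to 0.659 (0.0127). In wild type the same genes stood at 0.84, 0.888 and 0.924 of their day 4 level, not called. The CDC25A call was lost without S23 at day 4 or at day 8 (limma adjusted p = 0.0654 and 0.103).

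Among the 23 mitotic genes, 12 were called higher in SOX21-/- (52.2%) and 6 in wild type (26.1%), and 0 lower. Of all genes tested, 26.3 and 12% were called higher and 11 and 7.15% lower. CENPE had 27.1 and 24.8 rescaled TPM at day 0, 11.4 and 10.0 at day 4, then 37.3 and 37.7 at day 8 in SOX21-/-, against 30.9 and 35.6, 14.9 and 18.7, and 35.03 and 28.2 in wild type. It was lowest at day 4 in both genotypes and rose 3.29-fold and 1.83-fold from there (limma adjusted p = 5.55e-05 and 0.00478). CENPA, the histone that marks centromeres, rose 1.7-fold and 1.97-fold, TOP2A, the topoisomerase that untangles chromosomes, 1.68-fold and 1.49-fold, CDK1 1.67-fold and 1.35-fold, and MKI67 1.36-fold and 1.42-fold. The cyclins CCNA2, CCNB1 and CCNB2 were not called over this step in either genotype. The larger count in SOX21-/- depended on the scaling. Median-of-ratios scaling kept 13 of the 21 calls of the whole set in SOX21-/- and 10 of the 12 in wild type. The mitotic genes that lost their call were AURKB, BUB1, CDC25C, CENPF, MKI67, PLK1 and TTK in SOX21-/-, and CDK1 in wild type. The median difference of steps was 0.05 for the mitotic genes, beside 0.11 for all genes tested. With 1 library left out, the calls of 8 of the 21 genes in SOX21-/- and of 8 of the 12 in wild type were lost at least once. In wild type these were CDKN1A (limma adjusted p up to 0.22), CDK2 (0.163), CDK1 (0.134), TPX2 (0.12), CDKN1B (0.116), TOP2A (0.071), MKI67 (0.0601) and CENPE (0.0522). In SOX21-/- they were AURKB (up to 0.213), CDC25C (0.203), CDK2 (0.104), CENPF (0.104), CDC25A (0.103), BUB1 (0.0977), TTK (0.0728) and PLK1 (0.0657).

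**Figure D5:**
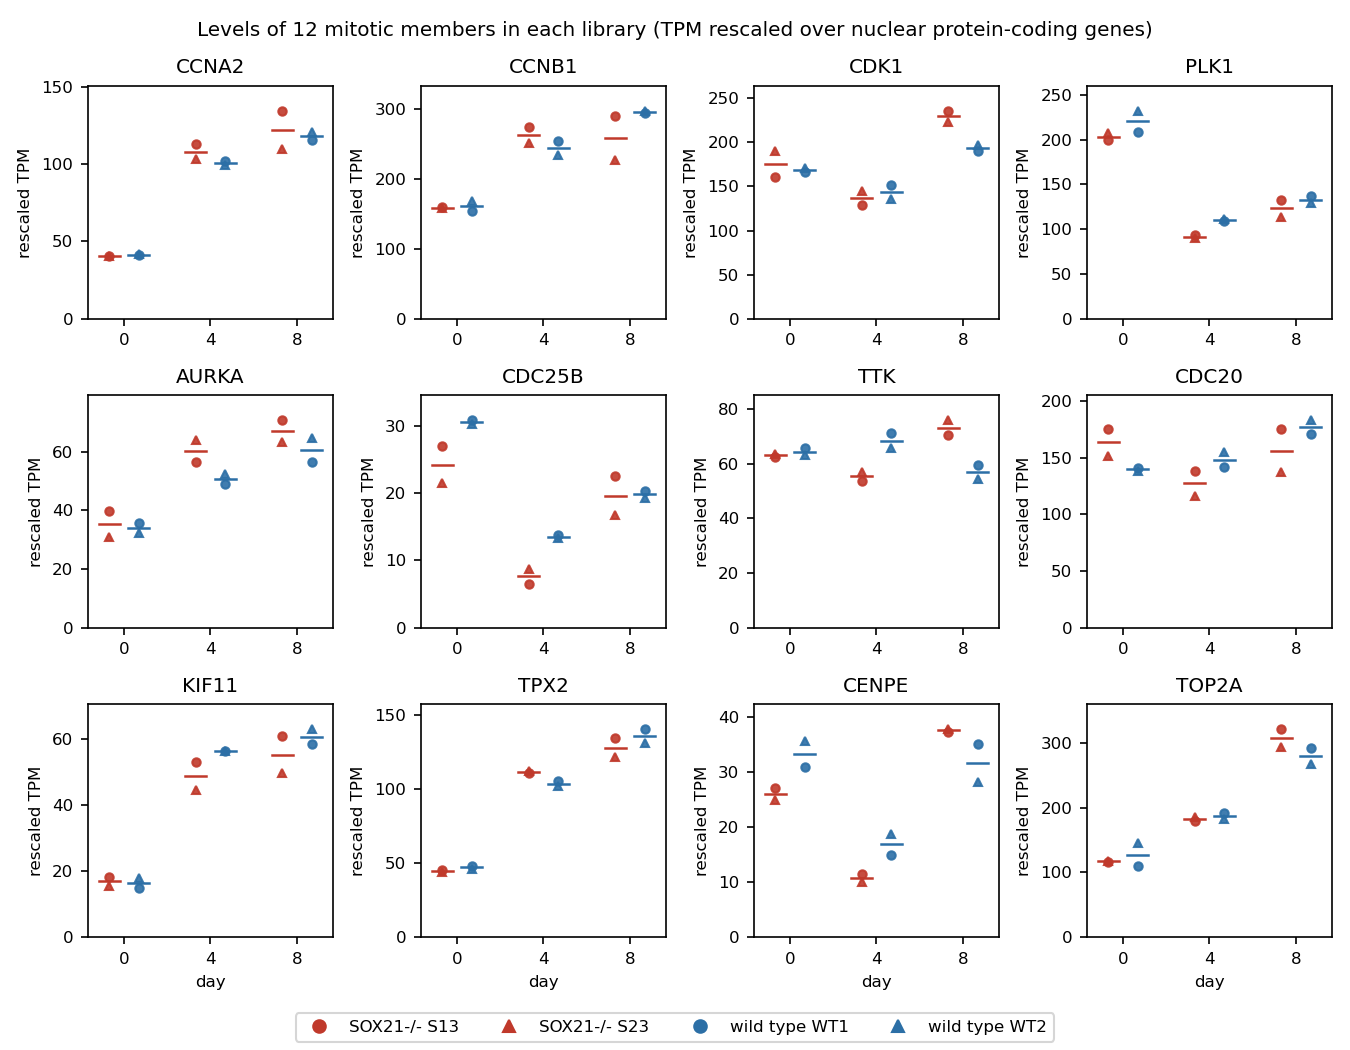
Levels of 12 mitotic genes in each library by day, in rescaled TPM; SOX21-/- libraries are red and left, wild type blue and right, lines are means of 2, and the vertical axes differ. KIF11, TPX2 and CCNA2 step up after day 0, PLK1 steps down, and CENPE and CDC25B are lowest at day 4, in both genotypes.

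Whether a step differed between the genotypes was tested directly. From day 0 to day 4, 0 of the 35 differences of steps was called, where 0.176% of all genes tested were, and limma gave 4 of 35 at an unadjusted p under 0.05, beside 14.6% of all. The largest of these was CCND2, whose step was smaller in SOX21-/- (log2 -0.79, SE 0.19, adjusted p = 0.117). From day 4 to day 8, 1 of 35 was called, where 1.59% of all genes tested were called with a higher step in SOX21-/-. It was TTK (MPS1, ENSG00000112742.9, chr6:80003887-80042527), the kinase that starts the spindle checkpoint signal. TTK had 53.6 and 57.0 rescaled TPM at day 4, then 70.4 and 75.9 at day 8 in SOX21-/-, against 71.2 and 65.7, then 59.6 and 54.4 in wild type. Its steps had opposite signs, and they differed by 0.66 on the log2 scale (SE 0.14, limma adjusted p = 0.0463), while the median of all genes was 0.11. The call was lost whichever of the 12 libraries was left out (limma adjusted p 0.0523 to 0.182). CENPE (log2 0.85, limma adjusted p = 0.0842), CDK4 (-0.61, 0.0842) and CCND2 (0.71, 0.0794) differed by similar amounts without a call.

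A wider list of 174 other cell cycle genes, of which 171 were tested, had 0 called between genotypes at day 0 (15 at an unadjusted p under 0.05 with limma, beside 5.88% of all genes tested). It had 1 called at day 4 (0.585%, beside 0.775% of all genes tested) and 5 at day 8 (2.92%, beside 2.79%), shares near the background. BTG2, an antiproliferative p53 target, was lower in SOX21-/- at day 4, with a mean of 4.41 TPM against 11.4 TPM in wild type (log2 -1.22, limma adjusted p = 0.0493). At day 8 MYCN, a growth-promoting transcription factor of progenitors, had a mean of 17.3 TPM in SOX21-/- against 40.4 TPM in wild type (log2 -1.18, adjusted p = 0.0143), and MYC 8.79 against 19.4 TPM (log2 -1.10, adjusted p = 0.0424). Both belong to the list of G1 and E2F/RB genes, where 2 were called lower and 1 higher at day 8. The gene called higher is not named, since only the 2 largest called changes per list are. CCNG1 (cyclin G1, a p53 target) was higher, at 298 against 216 TPM (log2 0.46, adjusted p = 0.0292), and the centromere gene CENPU lower, at 89.9 against 124 TPM (log2 -0.46, adjusted p = 0.0257). MYCN was also the only gene of the list whose day 4 to day 8 step was called different, by -1.31 on the log2 scale (adjusted p = 0.0311), where 0.54% of all genes were called with a lower step in SOX21-/-.

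Over the first step, 46.1% of all genes tested were called higher and 21.6% lower in SOX21-/-, and 51.7% and 19.2% in wild type, on the rescaled total. Of 35 further kinetochore and passenger genes, 25 were called higher and 6 lower in SOX21-/- from day 0 to day 4. In wild type, 26 were called higher and 4 lower. Among those higher in both was CENPQ, an inner kinetochore subunit (log2 2.17 and 2.34). Of 26 genes of CDK activation and p53 targets, 6 were called higher and 11 lower in SOX21-/-. In wild type, 7 were called higher and 11 lower, with RRM2B, a p53-induced ribonucleotide reductase subunit, at -3.66 and -3.68 on the log2 scale in SOX21-/- and wild type. Over the second step, where 26.3% of all genes were called higher and 11% lower in SOX21-/- and 12% and 7.15% in wild type, that list had 13 higher and 3 lower in SOX21-/- and 7 higher and 3 lower in wild type, and PLK2, another p53 target, rose by 2.63 and 3.00. Of 32 spindle, kinesin and cytokinesis genes, 21 were called higher in SOX21-/- and 7 in wild type over the second step, and 0 lower. Among those higher was the centrosome kinase NEK2 (log2 1.2 and 1.11). The adjusted p of each named gene over these steps was at most 0.00217 (limma).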

How the data were processed

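Per the labels' protocols, total RNA was isolated with TRIzol, enriched for poly(A) tails and sequenced on Illumina instruments of 3 kinds, which the labels do not assign to libraries. The deposited values are TPM, which the authors made with Salmon 0.8.2 on hg38 after CASAVA 1.7, per the submitters' processing notes. Neither the annotation nor the strand setting is given in the sources used here. TPM keeps no read numbers, so depth and counting error are unknown, and overlapping or antisense genes and pseudogene copies are uncertain. The table held 0 columns of other series.

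Genes that reached 1 in 2 or more libraries entered a limma fit of log2(value + 1), version 3.58.1 in R 4.3.3, with 1 mean per group over all 12 libraries, trended variances, 6 residual degrees of freedom, and 2-sided Benjamini-Hochberg adjustment at 0.05. Genotypes were compared on TPM as deposited (24248 genes). Day steps and their differences used TPM rescaled over 19804 nuclear protein-coding genes (14809 tested), because composition differed at day 0. Positions came from GENCODE v29 and promoters from RefSeq. All 35 members were described, and of the other lists at most the 2 largest called changes per list and comparison. The members and lists were chosen with earlier results of these data known. The fit was also run on simulated data with independent normal noise, which cannot show effects of shared lines or of composition. Alternatives were another pseudocount, filter, scale, median-of-ratios scaling, no trend, only the days compared, a line effect or block, and each library left out. Fits without the day 0 libraries were added after seeing the data.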

Additional observations from a re-analysis of the deposited data

Results flagged for a closer look

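The day 4 to day 8 step of TTK differed between the genotypes by the test of the difference itself: it was 0.66 higher on the log2 scale in SOX21-/- than in wild type (0.6566 before rounding, limma adjusted p = 0.0463). In SOX21-/- the step was 0.40 (limma adjusted p = 0.0122) and both libraries at day 8 lay above both at day 4, while in wild type it was -0.26 (limma adjusted p = 0.0999) and both lay below. The call held under 2 of 20 alternatives.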

How the results depend on the processing

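Of the calls that compare the genotypes, none was kept under every alternative, while 11 of 24 day 0 to day 4 calls in SOX21-/- and 9 of 23 in wild type were. Members called at day 4 between genotypes fell to 0 with a pseudocount of 0.1, median-of-ratios scaling, no trend, only that day's libraries or no day 0 libraries, and were 0 with any library left out. At day 8 there were 2 with a filter at 5, 3 on the other scale, 0 with only that day's libraries or no day 0 libraries, and 0 to 3 with a library left out. The count of members whose day 4 to day 8 step differed, 1 in the fit reported (TTK), was 0 with a pseudocount of 0.1, the other scale, median-of-ratios scaling, no trend, only the days compared or the replicate block, and 0 to 1 with a library left out, where the 1 was CDK4 without S23 at day 4 (limma adjusted p = 0.0438) and TTK was never called. Median-of-ratios scaling gave 13 members for the day 4 to day 8 step in SOX21-/-, and leaving a library out gave 4 to 14 in wild type.

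Over all genes, day 0 gave 159 without a filter, 8 on the other scale, 203 with median-of-ratios, 45 with its own libraries, and 59 to 114 with a library left out. Day 4 gave 120 with median-of-ratios, 0 with its own libraries, 0 without day 0, and 14 to 191. Day 8 gave 34 with its own libraries, 312 without day 0, and 170 to 774. The wild-type day 0 to day 4 step gave 15931 on the other scale; day 4 to day 8 gave 3593 to 5690 in SOX21-/- and 1152 to 2985 in wild type with a library left out. The first interaction gave 7 without a filter, 99 on the other scale, 11 with median-of-ratios, 13 without trend, 4 with its own days and 0 to 85; the second gave 210 without trend and 58 to 439.

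Signs turned in the day 0 to day 4 step. With median-of-ratios scaling, log2 changes were -0.13 for CDK2 in SOX21-/-, and -0.11 for CDK4, -0.21 for CDK2, -0.077 for CCNB1, -0.095 for AURKA and -0.11 for TOP2A in wild type. On TPM as deposited they were 0.27 for CDK1, 0.26 for CDC20 and 0.022 for AURKB in SOX21-/-, and 0.19 for BUB1B in wild type. The causes were not tested.

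With the line label as a replicate block, the first interaction gave 0 genes, the second 161, and TTK lost its call (limma adjusted p = 0.0659). The labels do not say that a repeated line name pairs libraries, and the deviations of same-named libraries correlated between -0.03 and 0.21 over genes. With 2 libraries per group and unknown depth, changes near the spread of low genes were not detectable.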
